A study of Mus musculus with 71 samples.

Results

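The comparison described here sets cells labelled as an EZH2 rescue against wild-type cells, by RNA sequencing of mouse embryonic stem (ES) cells. Members were chosen by title: the 3 libraries of the EZH2 rescue and the 3 libraries of cells wild type for Ezh1 and Ezh2 (WT), 6 of the 71 samples in the series and 6 of its 9 RNA libraries. The remaining 3 RNA libraries, labelled as an Ezh1/Ezh2 double knockout (dKO), entered the same fit and are given beside the results as levels. Per the labels, all 9 libraries are polyA RNA from cells of strain C57BL/6 grown on gelatin in 2i, a medium with 2 inhibitors that keeps ES cells naive. The rescue cells are described as expressing wild-type EZH2 again, beside a dKO. The sources used here do not say how EZH2 was put back, under which promoter, or whether the rescue libraries come from 1 clone or several, and nothing in the labels says that the replicates are separate cultures. The p-values therefore measure only the spread between these libraries, which may be technical. All 24222 gene rows were read, and 14145 genes passed the filter on low counts and were tested.

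Polycomb repressive complex 2 (PRC2) places methyl groups on lysine 27 of histone H3 (H3K27). Its catalytic subunit is EZH2 or its paralogue EZH1, which work with the scaffold SUZ12, the H3K27me3-binding EED and the histone chaperones RBBP4 and RBBP7. In ES cells the complex sits mainly at CpG-rich promoters of developmental genes, which are then marked by H3K27me3 and transcribed little. A cell line in which only EZH2 is restored has a PRC2 that lacks EZH1, so the comparison with WT asks how close its transcriptome stands to that of cells with both enzymes.

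Total counts ran from 15018882 to 22249263 in WT and from 22228851 to 36009529 in rescue. The rescue libraries are thus mostly the deeper ones, though rescue replicate 2 lies just under WT replicate 2. Levels are given as CPM, counts scaled to a common library total. Taking 3 counts as the limit, a gene without a count could still be at 0.0833 CPM in the library of greatest depth and at 0.200 CPM in that of least depth, for counting error only. Across genes, log expression correlated at 0.993 or more between replicates and at 0.968 to 0.972 between WT and rescue libraries. The first principal component of the 6 libraries took 78.6% of the variance, with WT at -43.0 to -39.3 and rescue at 40.5 to 41.9. The labelled cell type was met by its markers: the 10 ES cell markers summed to 7407 to 7608 CPM in WT and 8395 to 8426 in rescue. Of 8 feeder fibroblast markers 5 were under 1 CPM in every one of the 6 libraries, and the sum was 5.72 to 7.16 CPM in WT and 10.03 to 10.4 in rescue, with Dcn and Lum at 0 counts throughout. The 6 blood markers summed to 2.53 to 2.89 and 4.37 to 5.37 CPM, with Hba-a1 at 0. The 5 neural markers summed to 34.75 to 37.6 CPM in WT and 96.8 to 103.7 in rescue, most of it Tubb3. The 5 trophoblast markers summed to 35.7 to 39.0 and 20.97 to 21.95 CPM, most of it Krt7 and Tfap2a. Krt7 was lower in rescue (26.45 to 29.95 CPM in WT, 7.565 to 9.575 in rescue). Tfap2a was higher (6.886 to 8.02 and 9.118 to 9.986 CPM), as was Cdx2 (0.1865 to 0.2754 and 1.029 to 1.643 CPM). Gata3 and Elf5 overlapped between the groups. The part of other cell types in the results was not tested. In bulk RNA, more cells of a type and more RNA per cell cannot be told apart.

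The targeted genes were read first. Ezh1 (chromosome 11, 101191115 to 101226463) stood at 53.4, 48.4 and 47.9 CPM in the WT libraries and at 2.89, 2.33 and 3.42 CPM in the rescue libraries. The dKO libraries held 2.34, 1.83 and 1.80 CPM, so the rescue cells remained near the dKO level of Ezh1 and 17.2-fold below WT (log2 fold change -4.11 ± 0.126, SE, adjusted p = 2.07e-09). Ezh2 lies on chromosome 6 (47530274 to 47595270), and WT libraries held 308, 314 and 310 CPM of it, rescue libraries 555, 576 and 549. Every rescue library lay above every WT library, a rise of 1.80-fold (0.85 ± 0.057, adjusted p = 4.51e-07), against 192, 191 and 214 CPM in dKO. Reads of a transgene, if one is present, and of the endogenous Ezh2 gene are summed in these values.

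The other PRC2 core subunits differed from WT by less. Suz12, the scaffold, was at 455, 442 and 478 CPM in WT libraries and at 779, 716 and 790 CPM in rescue, and rose by 0.73 ± 0.094 (adjusted p = 5.83e-05). Rbbp7 fell from 509, 526 and 537 CPM to 415, 437 and 399 CPM, by 0.33 on the log2 scale (adjusted p = 0.0035). Eed stood at 240, 246 and 232 CPM and 266, 279 and 266 CPM, a difference of 0.18 ± 0.066 (adjusted p = 0.0392). That call was lost without any 1 of the WT or rescue libraries, with an adjusted p of up to 0.114. Rbbp4 went the other way without passing, with 847 ± 25.1 CPM in WT and 791 ± 34.0 in rescue (SD, n = 3, adjusted p = 0.132). Of the 6 core genes 3 were called higher, 2 lower and 1 did not pass. The targeted genes are among them, Ezh2 with the higher and Ezh1 with the lower. Over all tested genes 26.8% were called higher and 27.3% lower.

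Called genes were numerous but mostly small in effect. At a Benjamini-Hochberg adjusted p under 0.05, 7653 of 14145 genes (54.1%) differed between rescue and WT, 3794 higher (26.8%) and 3859 lower (27.3%). A change of over 2-fold was called for 910 genes higher (6.43%) and 919 lower (6.5%). The median size was 0.53 among genes called higher and 0.56 among genes called lower on the log2 scale. For 9233 genes (65.3%), called or not, the 3 rescue libraries lay wholly above (32.8%) or wholly below (32.5%) the 3 WT libraries. Large changes were found mainly in genes of low level, by the mean over all 9 libraries, dKO included. That mean was under 10 CPM for 704 of the 910 large rises and 571 of the 919 large falls. Among the 2608 genes over 100 CPM there were 29 and 49.

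**Figure D1:**
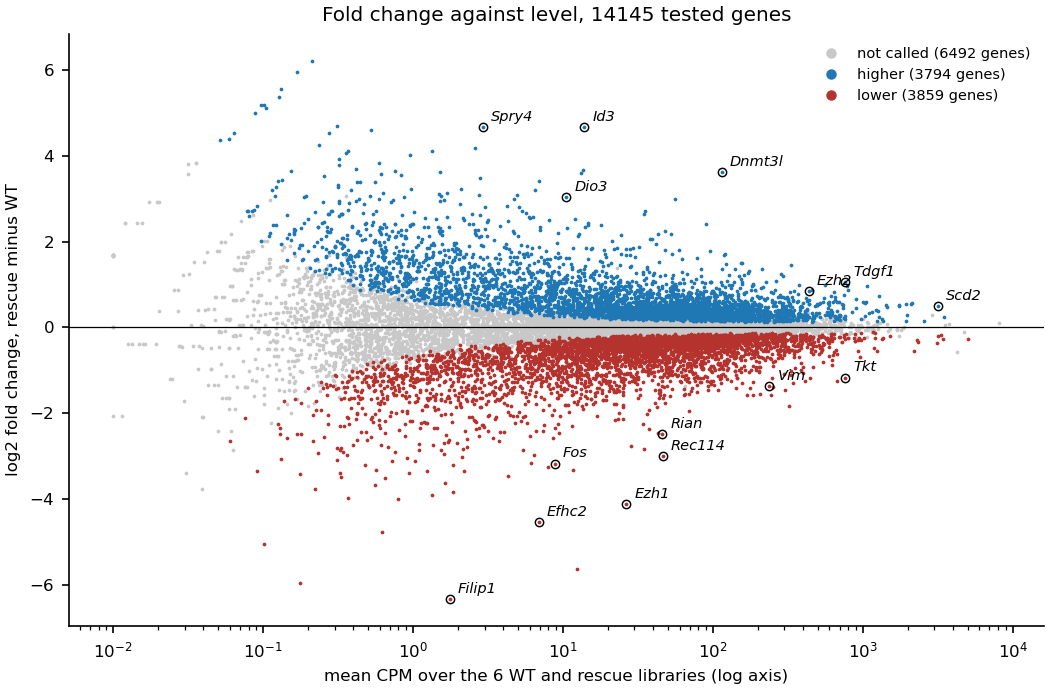
Log2 fold change of rescue minus WT against mean CPM over the 6 libraries (log axis), one point a tested gene, blue where called higher (3794), red where called lower (3859) and grey where not called. The largest changes lie at the left, and among genes with a mean over 20 CPM the largest changes are those of Ezh1 (-4.11), Dnmt3l (3.62) and Rec114 (-2.99).

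Among the largest rises were regulators of signalling and differentiation that WT cells hardly transcribed. Id3, which blocks basic helix-loop-helix transcription factors and answers to BMP signals, was at 0.757, 1.17 and 1.13 CPM in WT libraries and at 27.9, 23.4 and 28.6 CPM in rescue. It thus rose by 4.67 ± 0.462 on the log2 scale (adjusted p = 2.07e-05), while the dKO libraries held 2.26, 3.46 and 9.50 CPM. Spry4, a feedback inhibitor of receptor tyrosine kinase signalling, was at 0.207, 0.233 and 0.206 CPM in WT libraries and at 5.83, 4.67 and 6.36 CPM in rescue (4.66 ± 0.352, adjusted p = 9.82e-07). Its dKO libraries, at 0.226, 0.171 and 0.639 CPM, stood near WT. Crmp1, a mediator of growth cone collapse in neurons, went from 2.13, 2.05 and 1.75 CPM to 24.7, 24.5 and 26.2 CPM, with 3.84 to 7.23 CPM in dKO. The hyaluronan-binding Cemip went from 1.51, 1.77 and 2.63 CPM to 23.2, 24.6 and 25.2 CPM, with 3.01 to 4.63 CPM in dKO. For these 4 genes the rescue libraries were above both other groups with no overlap.

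Dnmt3l showed another pattern. This catalytically inactive partner of the de novo DNA methyltransferases was at 15.8, 17.5 and 18.4 CPM in the WT libraries, at 225, 193 and 218 CPM in rescue and at 285, 281 and 266 CPM in dKO. Its rise of 3.62 ± 0.081 (12.3-fold, adjusted p = 2.13e-10) left the rescue cells closer to the dKO than to the WT level. The gene overlaps the neighbouring Aire on chromosome 10 (78042287 to 78063622 and 78030022 to 78043610), and the library kit does not mark strand, so reads of the shared stretch cannot be assigned. Aire, a transcriptional regulator of the thymus, was at 0.103 to 0.466 CPM in WT and 4.32 to 5.42 CPM in rescue (4.17 ± 0.338), and at 5.01 without WT replicate 2. The calcium-storing Casq2 of heart muscle, on chromosome 3, rose from 0 to 0.206 CPM in WT to 2.20 to 2.89 CPM in rescue, with 2.30 to 4.07 CPM in dKO. The neurotrophin receptor Ntrk3, the PDGF receptor-like Pdgfrl, the microtubule-severing Fign and the cation channel Trpa1 rose by 3.22, 3.12, 3.10 and 3.19, and their dKO fold changes over WT were 2.71, 3.05, 2.99 and 2.77. The amino acid carrier Slc7a2 was higher in dKO (17.6 to 22.3 CPM) than in rescue (8.26 to 9.67 CPM), both over 0.886 to 1.31 CPM in WT. The remaining large rises were the kinase scaffold Ksr2 (3.50), the protease Klk10 (3.40) and the forkhead factor Foxd1 (3.08), all with rescue libraries above those of dKO.

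The 15 largest falls included 4 genes known from meiosis or the testis. Rec114, needed for meiotic DNA breaks, was at 78.2, 85.0 and 84.0 CPM in WT libraries and at 11.6, 9.80 and 9.55 CPM in rescue, a fall of 2.99 ± 0.085 on the log2 scale (adjusted p = 1.64e-09), and dKO stood between them at 34.9 to 37.4 CPM. Dmrtc2, a DM-domain gene of the testis, went from 7.37, 8.25 and 8.15 CPM to 0.629, 0.607 and 0.951 CPM. The meiotic kinase Aurkc went from 2.78 to 4.24 CPM to 0.0865 to 0.314 CPM, and the testis dipeptidase Dpep3 from 3.58 to 4.43 to 0.171 to 0.607 CPM. Their dKO libraries, at 1.48 to 2.52 and 1.76 to 3.24 CPM, lay between both groups. The X-linked lymphocyte-regulated Xlr3c and Xlr4a fell by 3.90 and 3.02, but both belong to a family of near-identical copies and are uncertain.

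Other falls had no common class. Filip1, which binds filamin, had 190 counts in the WT libraries and 3 in rescue, a ratio of 91.0 with an exact 95% interval of 30.7 to 445 that covers counting error only. The dKO libraries were as low, at 0.0399 to 0.128 CPM. Efhc2, an EF-hand protein of cilia encoded on the X chromosome, was at 15.1, 12.4 and 12.1 CPM in WT and 0.629, 0.514 and 0.519 CPM in rescue (-4.53 ± 0.255). The immediate early gene Fos fell from 15.1, 15.6 and 16.8 CPM to 1.69, 2.05 and 1.56 CPM (-3.17 ± 0.685, adjusted p = 0.00484). Fos varied most in dKO, where the libraries held 74.1, 51.3 and 12.7 CPM. The Schlafen gene Slfn9 fell from 9.18 to 12.3 CPM to 0.934 to 1.38 CPM and was at 41.2 to 45.2 CPM in dKO. The sulfate carrier Slc13a4 fell by 3.33 on the log2 scale, and its log2 fold change in dKO over WT was 0.49. The glutamine repeat gene Glrp1 fell by 3.20 and the antisense transcript Ptprtos by 3.24, for which reads of the 2 strands cannot be told apart.

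**Figure D2:**
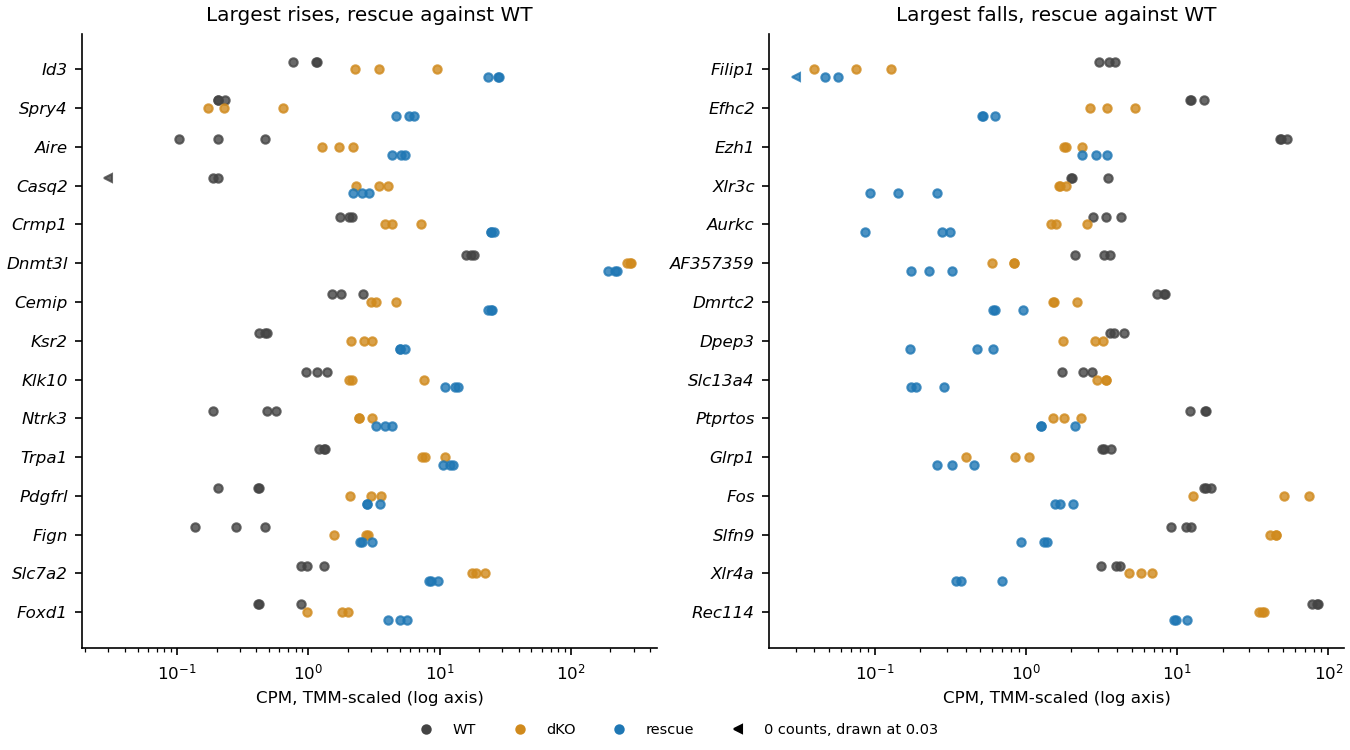
CPM scaled by TMM (log axis) in each WT (grey), dKO (orange) and rescue (blue) library for the 15 largest rises and the 15 largest falls of rescue against WT, one point a library, triangles for 0 counts drawn at 0.03. The 3 blue and 3 grey points of each gene do not overlap, as the choice of genes required, while the orange points lie near one group, between both or beyond both, depending on the gene.

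In absolute terms the largest differences were in abundant genes. The 6 largest gains in CPM were the stearoyl-CoA desaturase Scd2, the pyruvate kinase Pkm, the translation factor Eif4g2, the pluripotency factor Tfcp2l1, the fatty acid synthase Fasn and the matrix protein Sparc. Scd2 was at 2676, 2662 and 2555 CPM in WT libraries and at 3579, 3936 and 3635 CPM in rescue, and Fasn at 747, 697 and 739 CPM against 1400, 1369 and 1476 CPM (0.96 ± 0.092, adjusted p = 6.41e-06). The 6 largest losses were the elongation factor Eef1a1, the asparagine synthetase Asns, the ubiquitin ligase Nedd4, the ribosomal protein Rpl4, the transketolase Tkt and the importin Ipo5. Asns fell from 2655, 2677 and 2497 CPM to 1728, 1887 and 1734 CPM (-0.55 ± 0.113, adjusted p = 0.00165), near the 1301 to 1918 CPM of dKO. The fall of Eef1a1 (-0.26, adjusted p = 0.0109) was lost without rescue replicate 3 (0.0505). Tkt and Ipo5, which fell by 1.17 and 1.25, both lie on chromosome 14.

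Direction of change depended on the chromosome. Over all tested genes the median log2 fold change was 0.00, but it was -0.85 on chromosome 14, where 323 of 464 genes were called lower and 37 higher, and -0.40 on chromosome 3, where 362 of 651 were lower and 59 higher. Every other chromosome had a median within 0.1 of all genes. The shift was in each rescue library: -0.80, -0.83 and -0.82 on chromosome 14 and -0.40, -0.40 and -0.42 on chromosome 3, against -0.01 to 0.01 in the WT libraries. Of the dKO libraries, replicates 1 and 2 were at 0.13 and 0.13 on chromosome 3, and replicate 3 was at -0.34. Both chromosomes together held 1115 tested genes, of which 61.4% were lower and 8.61% higher, while of the 13030 others 24.4% were lower and 28.4% higher.

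**Figure D3:**
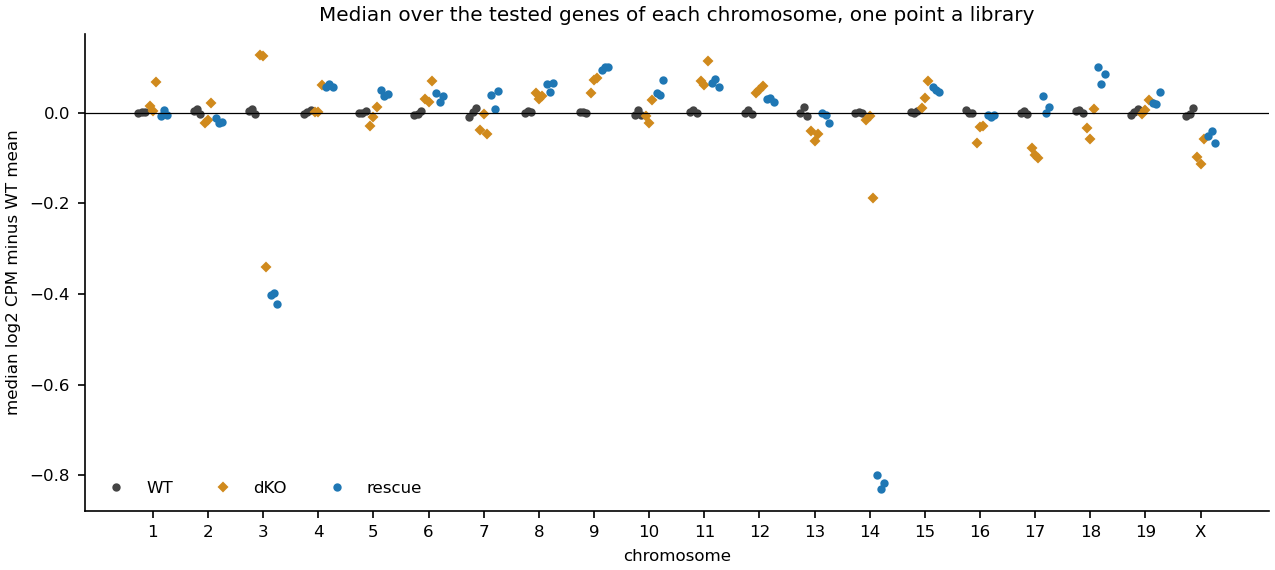
Median over the tested genes of each chromosome of log2 CPM minus the WT mean, one point a library, for WT (grey), dKO (orange) and rescue (blue). The 3 rescue libraries sit near -0.82 on chromosome 14 and near -0.40 on chromosome 3, where dKO replicate 3 alone of the dKO libraries is at -0.34.

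Within chromosome 14 the shift had an edge. In bins of 10 Mb holding at least 20 tested genes, the median was 0.05 and -0.11 in the 2 bins up to 30 Mb, and -1.06 to -0.89 in the 5 bins from 30008901 to 79630797, where 251 of 332 genes were lower and 14 higher. Those 5 bins had medians of 0.02 in dKO replicates 1 and 2 and -0.22 in replicate 3. A run at the end of chromosome 9 (110084319 to 124476862) was shifted up instead, with a median of 0.57 and 81 of 113 genes higher, 2 lower, and 0.13 to 0.19 in the dKO libraries. The last bin of chromosome 18 (80046830 to 89131014, 24 genes) had a median of 0.77, and the first of chromosome X (10737 to 9662983, 50 genes) of 1.03. On these 2 segments the dKO libraries were also up, at 0.52 to 0.64 and 0.84 to 0.86. Of 220 such bins 17 lay over 0.4 from all genes, and the other 203 had medians between -0.37 and 0.32. Copy number was not measured here, and its part in these shifts was not tested. Genes named below with their values are marked where they lie on chromosomes 3 or 14 or in these segments.

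**Figure D4:**
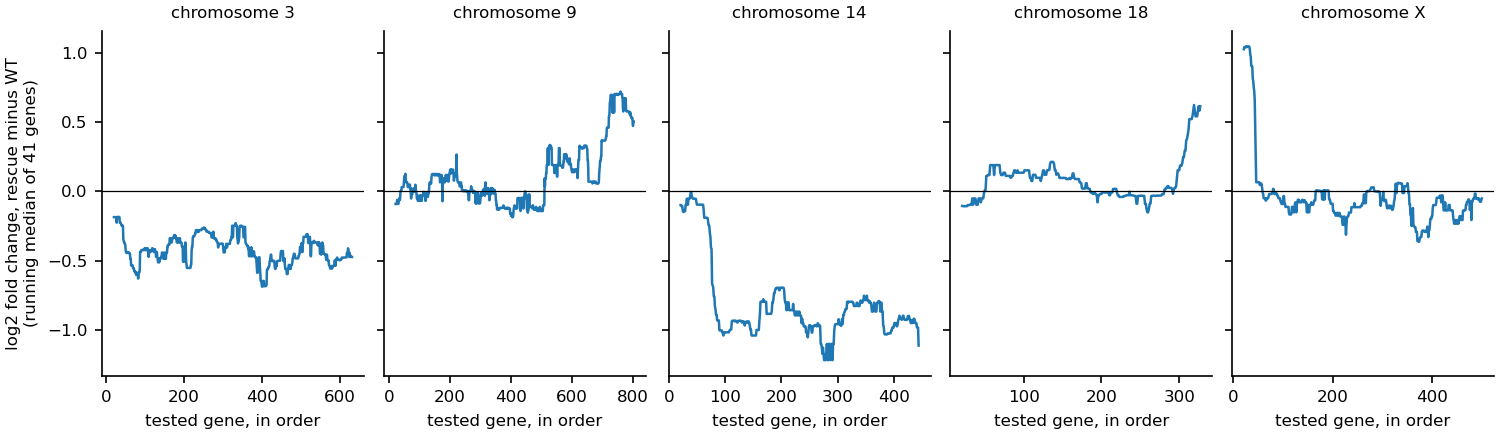
Running median over 41 neighbouring tested genes of the log2 fold change of rescue minus WT, in order along chromosomes 3, 9, 14, 18 and X. Chromosome 3 is low over its whole length, chromosome 14 drops to about -1 after its first genes, and the ends of chromosomes 9 and 18 and the start of X are raised.

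Genes with a Suz12 peak were taken from the authors' list of 7480 peaks, called in ES cells of another strain (129B6F1). They were grouped by the width of the peak within 1 kb of the start site, or of the gene where the reference gave no start site. Of 296 tested genes with a peak of 3 kb or more, 38.2% were called higher and 10.1% lower in rescue, with a median of 0.52 on the log2 scale. By over 2-fold 29.05% rose and 4.73% fell. The share called higher was smaller for narrower peaks. Of 1876 genes with a peak of 1 to 3 kb 29.2% were higher and 23.7% lower (median 0.10), of 1766 with a narrower peak 26.3% and 30.01% (median -0.02), and of 10159 with no peak 26.1% and 28.0% (median -0.01). In dKO against the same WT libraries the medians were 1.87, 0.92, 0.23 and -0.10. Genes with the widest peaks were transcribed little, with a median of 0.775 CPM in WT, 1.18 in rescue and 2.79 in dKO. The other classes had WT medians of 5.07, 17.3 and 31.6 CPM, so level changed along with peak width. By the mean over all 9 libraries, 273 of 1540 tested genes under 1 CPM rose by over 2-fold, against 29 of 2608 over 100 CPM. The part of level in the shares by peak width was not tested. Of 487 such genes 296 passed the filter. A gene near 0 in WT can pass through dKO or rescue alone, which favours rises, so the shares hold for tested genes only. Foxd1 (peak of 5262 bp), the Wnt target Sp5 (6511 bp) and the blood factor Runx1 (5457 bp) were among those that rose. The neural Sox11 (4643 bp) did not pass. The cadherin Cdh2 (3233 bp) rose and the epithelial factor Grhl2 (4019 bp) fell. Peaks of these last genes were matched to the whole gene and may lie away from the start site.

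The 250 bases before the start site are shown for a pair of genes that rose and hold a Suz12 peak (Id3, 2070 bp, and the neural factor Olig2, 2947 bp) and a pair of germline genes that fell and hold none (Dmrtc2 and Rec114). They are the RefSeq sequences of GRCm38.p6, read 5′ to 3′ on the strand of the gene, with each CG in capitals, since CG density is the feature by which such promoters are classed. Id3 lies at chr4:136143572-136143821 (plus strand), Olig2 at chr16:91225300-91225549 (plus), Dmrtc2 at chr7:24869807-24870056 (plus) and Rec114 at chr9:58741560-58741809 (minus). The gene spans are 24869817 to 24877655 for Dmrtc2 and 58652856 to 58822706 for Rec114. The Rec114 stretch thus lies inside the annotated gene, as does nearly all of the Dmrtc2 stretch. For both genes the lack of a Suz12 peak refers to this internal start site.
Id3: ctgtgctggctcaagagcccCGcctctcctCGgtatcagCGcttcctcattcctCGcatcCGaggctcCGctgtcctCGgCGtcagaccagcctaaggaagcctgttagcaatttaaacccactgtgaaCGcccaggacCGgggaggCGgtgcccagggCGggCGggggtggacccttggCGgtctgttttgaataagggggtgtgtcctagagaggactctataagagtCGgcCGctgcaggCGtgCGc
Olig2: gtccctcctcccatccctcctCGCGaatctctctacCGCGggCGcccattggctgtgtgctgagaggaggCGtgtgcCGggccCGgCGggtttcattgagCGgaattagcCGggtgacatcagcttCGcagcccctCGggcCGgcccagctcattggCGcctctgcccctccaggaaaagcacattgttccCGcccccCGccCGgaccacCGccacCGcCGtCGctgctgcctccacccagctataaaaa
Dmrtc2: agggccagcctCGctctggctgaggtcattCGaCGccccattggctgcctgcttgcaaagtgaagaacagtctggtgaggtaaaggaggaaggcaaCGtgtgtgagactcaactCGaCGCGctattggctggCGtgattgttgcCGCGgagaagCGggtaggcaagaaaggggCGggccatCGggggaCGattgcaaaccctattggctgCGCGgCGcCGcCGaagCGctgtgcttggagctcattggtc
Rec114: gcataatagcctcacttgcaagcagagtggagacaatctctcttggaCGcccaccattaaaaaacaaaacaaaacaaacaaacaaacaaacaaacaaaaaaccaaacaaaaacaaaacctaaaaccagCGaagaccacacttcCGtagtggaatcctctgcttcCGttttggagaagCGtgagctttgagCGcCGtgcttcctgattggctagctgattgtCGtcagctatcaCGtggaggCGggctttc
The number of CG was 18 for Id3, 22 for Olig2, 20 for Dmrtc2 and 10 for Rec114. Rec114 also holds the E-box letters CACGTG once, and the other 3 hold none on either strand, the motif being its own reverse complement. Over the 11164 tested genes with an entry in the table, the median was 15.75 CG in these 250 bases, and 10.0% held CACGTG. Genes called higher by over 2-fold had a median of 12 CG (652 genes) and those called lower by over 2-fold a median of 10 (731 genes). With a Suz12 peak, at 302 and 203 of them, the medians were 18 and 16.5, and without one 8 and 8. The letters CACGTG stood at 10.1% of the large rises, 8.48% of the large falls and 10 of the 25 germline genes with an entry (40%). Among the 14 germline genes called lower it was 5 (35.7%), so the motif was not more common in those that fell.

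Over all tested genes 26.8% were called higher and 27.3% lower, the shares against which the following lists are set. Of 24 PRC1 genes, the complex that reads H3K27me3 and ubiquitinates H2A, 11 rose, 4 fell and 9 were not called (median 0.15). Cbx2 and Cbx8 rose by 0.55 and 0.66, and Kdm2b, which brings a variant PRC1 to CpG islands, went from 108 to 119 CPM to 166 to 172 CPM (0.59 ± 0.059). Bcor fell by 0.56, and the catalytic Rnf2 was at 0.06 without passing. Of 9 PRC2 accessory and inhibitor genes 4 rose, among them Jarid2 (0.25), E130012A19Rik (0.68), Phf1 (0.59) and Lcor, 2 fell (Phf19 by 0.87 and Lcorl by 0.70 on the log2 scale), and 3 did not pass, among them Mtf2 at -0.01. The call for Jarid2 was lost without WT replicate 2 or rescue replicate 2. Members named in this and the following paragraphs beyond those with the smallest adjusted p of their list were chosen after their values were seen.

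Of the 9 tested genes for H3K27 demethylases, acetyltransferases and H3K36 methyltransferases 5 rose, 2 fell and 2 were not called. The H3K36 methyltransferase Whsc1 fell from 139, 131 and 139 CPM to 66.2, 70.7 and 70.7 CPM (-0.98 ± 0.087, adjusted p = 3.51e-06). The demethylase Kdm6b rose by 0.70, and its paralogue Kdm6a was at 0.22 (adjusted p = 0.0605), a difference called in 4 other settings, among them without dKO replicate 1 or 3. Setd2, at 172 to 183 CPM in WT and 294 to 325 CPM in rescue, lies in the raised segment of chromosome 9, whose bin had a median of 0.70 against 0.82 for the gene. Of 8 DNA methylation genes 3 rose (Dnmt3l, Dnmt3b and Tet2, the last on the lowered chromosome 3), 2 fell (Dnmt3a and Tet3) and 3 did not pass. Dnmt3a went from 61.9, 55.6 and 56.5 CPM to 35.6, 34.6 and 34.1 CPM (-0.74 ± 0.070, adjusted p = 5.67e-06), and Dnmt3b, the other active de novo enzyme, from 98.0 to 103 CPM to 130.2 to 135 CPM. The maintenance factor Uhrf1 was at 0.03 and did not pass.

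Hox genes are classical PRC2 targets that pattern the body axis. Of 39 listed 30 were tested, and of these 13 rose, 2 fell and 15 were not called. Their median was 0.99 in rescue against WT, beside 0.00 over all genes. In dKO against WT it was 2.85, a value the filter favours, since members near 0 in WT and rescue were tested because of their dKO counts. The rescue median is favoured as well, since members near 0 in WT could pass through their rescue counts. Hoxc12 went from 0.757, 0.979 and 1.08 CPM to 5.35, 4.90 and 5.58 CPM (2.46 ± 0.183, adjusted p = 8.91e-07), above the 2.86 to 3.71 CPM of dKO. Hoxb9 went from 1.39 to 2.13 CPM to 6.46 to 6.66 CPM. Hoxa10, by contrast, was at 0.207 to 0.326 CPM in WT, 0.794 to 1.31 CPM in rescue and 13.8 to 19.7 CPM in dKO. Hoxb13 fell from 8.47, 8.39 and 10.0 CPM to 2.17, 2.01 and 2.29 CPM (-2.05 ± 0.143), although dKO held 17.6 to 21.97 CPM, and Hoxc4 fell by 0.89. Hoxc13, the most abundant member that did not pass, was at 11.8 ± 1.07 and 12.6 ± 1.22 CPM (SD, n = 3).

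Markers of the embryonic lineages gave small counts and partial changes. In the mesoderm, endoderm and neural lists, members near 0 in WT and rescue could be tested through their dKO counts. The filter therefore favours the dKO medians of these lists, as it does for the Hox genes. It favours the rescue medians too, since members near 0 in WT could pass through their rescue counts. Mesoderm and heart genes counted 19 tested, with 8 that rose, 2 that fell and 9 that did not pass (median 0.96, and 2.395 in dKO). Without the shifted regions 5 of 15 were higher and 2 lower, with a median of 0.46. Eomes, a T-box factor of the primitive streak, was at 15.6, 14.8 and 14.2 CPM in WT and 43.0, 47.9 and 47.1 CPM in rescue (1.63 ± 0.086, adjusted p = 9.06e-08), and at 11.6 to 13.7 CPM in dKO. It lies in the raised segment of chromosome 9, whose bin median of 0.70 is less than the change of the gene. The streak factor T rose from 1.08 to 1.38 CPM to 3.63 to 4.11 CPM and was at 0.226 to 0.679 CPM in dKO. Tbx20, a heart factor at 27.3 to 46.8 CPM in dKO, was at 2.28 to 3.31 CPM in WT and 3.54 to 4.11 CPM in rescue and did not pass (adjusted p = 0.137). It was called without dKO replicate 3 and in a fit of only the 6 libraries, where the adjusted p went down to 0.00804.

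In the endoderm list of 18 genes, rises numbered 8 and falls 2, with 8 not passing (median 0.44, and 2.33 in dKO). The basement membrane collagen Col4a1 was at 8.40, 9.46 and 9.13 CPM in the WT libraries, at 28.6, 23.7 and 27.2 CPM in rescue and at 104.8 to 132 CPM in dKO. Sox17 rose from 0.138 to 0.258 CPM to 0.747 to 1.21 CPM, whereas Gata6, at 9.39 to 15.05 CPM in dKO, was at 0.344 to 0.839 CPM in WT and 0.420 to 0.519 CPM in rescue and did not pass. In the neural list of 19, rises numbered 7 and falls 2, with 10 not passing (median 0.35, and 2.09 in dKO). Without the shifted regions 6 of 18 were higher and 2 lower, with a median of 0.17. Olig2, which specifies motor neurons and oligodendrocytes, was at 25.3, 26.4 and 22.7 CPM in WT and 77.7, 85.1 and 83.6 CPM in rescue (1.73 ± 0.0996, adjusted p = 1.61e-07), inside the dKO range of 73.0 to 94.2 CPM. The neuronal tubulin Tubb3 went from 29.6 to 31.8 CPM to 90.6 to 97.4 CPM and was at 17.9 to 23.4 CPM in dKO, so that it was higher in rescue alone of the 3 groups. Foxd3 went from 7.97 to 12.1 CPM to 26.9 to 39.95 CPM.

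Of 16 trophoblast genes 6 rose, 2 fell and 8 were not called. The 2 that fell were abundant: Tfap2c went from 167, 173 and 161 CPM to 87.1, 90.1 and 84.3 CPM (-0.94 ± 0.075), and the keratin Krt7 from 29.95, 27.9 and 26.4 CPM to 9.57, 8.87 and 7.57 CPM. The keratins Krt8 and Krt18 rose by 1.62 and 0.79. Among 10 blood genes 7 rose, none fell by edgeR or DESeq2 (0 lower also at an unadjusted p under 0.05) and 3 did not pass, with Runx1 at 0.373 to 0.928 CPM in WT and 3.49 to 5.27 CPM in rescue. None of these 7 exceeded a mean of 5 CPM in rescue, and Gata1 lies in the raised segment of chromosome X. Members near 0 in WT, such as Gata1 at 0.155 to 0.280 CPM, could be tested through their rescue or dKO counts. They had little room to fall, so the absence of falls says little. The same limit holds for trophoblast and fibroblast members near 0 in WT. Of 8 fibroblast genes 4 rose, 1 fell and 3 were not called. The fall was in Vim, the main intermediate filament of mesenchymal cells, at 350, 348 and 332 CPM in WT, 132, 133 and 136 CPM in rescue and 15.5 to 30.2 CPM in dKO. Thy1, at 28.7 to 30.8 CPM in dKO, was at 1.13 to 2.62 CPM in WT and 1.45 to 1.80 CPM in rescue.

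Pluripotency genes were slightly above WT in rescue. Among 26 naive and general pluripotency genes, 16 rose, 3 fell and 7 were not called, with a median of 0.24 in rescue and -0.31 in dKO. Zfp57, which protects imprints, rose from 166, 170 and 168 CPM to 351, 352 and 367 CPM (1.09 ± 0.062, adjusted p = 1.54e-07) and was at 112 to 130 CPM in dKO. Tfcp2l1 went from 1471 to 1642 CPM to 2287 to 2353 CPM, and Lin28a from 120 to 136 CPM to 197 to 201 CPM. Tdgf1, the Nodal co-receptor, rose by 1.05 in the raised segment of chromosome 9 (bin median 0.70). Nanog stood at 1052, 1074 and 1019 CPM and 1071, 1190 and 1103 CPM and did not pass (adjusted p = 0.203). The rises of Pou5f1 (0.26, adjusted p = 0.0106) and Esrrb (0.15, adjusted p = 0.0229) were lost without rescue replicate 1 (0.0554) for the first and without any of 4 libraries (up to 0.0772) for the second.

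The 3 that fell were Sox2, Klf5 and Dppa3. Dppa3, a maternal factor that guards DNA methylation patterns, went from 79.2, 80.3 and 72.9 CPM to 27.5, 32.2 and 26.9 CPM (-1.43 ± 0.097, adjusted p = 4.62e-07). Sox2 (0.66 lower on the log2 scale in rescue) lies on chromosome 3 and Klf5 (0.84 lower) on chromosome 14, the chromosomes shifted down. Without the shifted chromosomes and segments, 13 of 22 naive genes were higher and 1 lower. Of 15 formative and primed genes 6 rose, 6 fell and 3 were not called. Cdh2 and the ETS factor Etv1 rose by 2.71 and 2.83, and Grhl2 fell by 2.14, with 9.27 to 12.0 CPM in dKO against 5.23 to 6.39 in WT and 1.06 to 1.63 in rescue. Zic2 (-0.86) and Otx2 (-0.71) fell on chromosome 14, and without the shifted regions 6 of 10 tested members were higher and 2 lower.

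The germline list held more falls than rises. Of 26 genes 14 fell, 3 rose and 9 were not called, with a median of -0.75 in rescue against WT and of 1.82 in dKO against WT. Prdm1, which directs germ cell specification, fell from 38.3, 39.2 and 41.4 CPM to 11.2, 10.4 and 11.1 CPM (-1.86 ± 0.0899, adjusted p = 5.61e-08), with 14.2 to 17.4 CPM in dKO. The meiotic chromosome axis gene Hormad1 went from 39.2, 38.9 and 35.2 CPM to 8.80, 9.95 and 10.2 CPM, and the meiotic cohesin Smc1b from 9.08 to 10.3 CPM to 3.20 to 3.83 CPM. Both were above WT in dKO, at 42.4 to 58.5 and 39.0 to 48.8 CPM. The synaptonemal Sycp3 fell by 1.39, the retinoic acid target Stra8 by 1.40, the cohesin Rec8 by 1.81 and the RNA-binding Dazl by 0.81 on the log2 scale. Tuba3a fell by 1.46 but shares near-identical sequence with Tuba3b and is uncertain. Piwil2, at 112.8 to 158 CPM in dKO, was at 19.14 to 20.3 CPM in WT and 15.3 to 17.3 CPM in rescue and did not pass (adjusted p = 0.0523), though it was called as lower in 5 other settings, among them without dKO replicate 2 or 3. The 3 that rose were Tex19.1, from 87.9 to 113 CPM to 234 to 269 CPM, Syce1 (1.44) and Mael (0.94). Hormad1, Rec8 and Piwil2 lie on chromosomes 3 and 14, and without the shifted regions 11 of 21 germline genes were lower and 3 higher (median -0.71).

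Imprinted genes, which are transcribed from 1 parental copy, changed in both directions. Of 36 tested 9 rose, 15 fell and 12 were not called (median -0.20). In the Dlk1-Dio3 domain of chromosome 12 the noncoding RNAs of the maternal copy fell together. Rian was at 75.1, 78.4 and 81.2 CPM in the WT libraries, at 14.4, 13.2 and 14.5 CPM in rescue and at 13.97 to 16.7 CPM in dKO (-2.48 ± 0.083, adjusted p = 3.82e-09), Meg3 at 13.9 to 16.1, 2.25 to 2.85 and 2.08 to 2.77 CPM, and Mirg fell by 2.79. AF357359, whose position (109650709 to 109650738) lies inside Rian, fell by 3.62, and its reads cannot be told apart from those of Rian. Dio3, the thyroid hormone deiodinase of the same domain, rose from 2.13, 2.19 and 2.48 CPM to 19.5, 19.14 and 17.5 CPM (3.04 ± 0.164), with 8.53 to 12.8 CPM in dKO, and Dlk1 stayed under 0.7 CPM in both groups and did not pass.

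In the neighbouring pair Sgce and Peg10 on chromosome 6, Sgce fell from 13.4, 15.9 and 16.8 CPM to 2.63, 4.02 and 3.24 CPM and Peg10 from 107, 106 and 118 CPM to 47.9, 50.7 and 48.5 CPM. The zinc finger gene Plagl1 rose from 52.2 to 63.1 CPM to 161 to 205 CPM, close to the 188 to 228 CPM of dKO. The cell cycle inhibitor Cdkn1c rose from 1.51 to 1.86 CPM to 6.21 to 7.06 CPM. Sfmbt2 and Slc38a4, whose imprint is known to rest on H3K27me3 in extraembryonic cells, fell by 0.56 and 0.68 on the log2 scale. Sfmbt2 was at 39.6 to 45.7 CPM in WT, 28.5 to 30.0 CPM in rescue and 467 to 516 CPM in dKO. The secreted Smoc1 fell from 35.9 to 38.4 CPM to 12.5 to 12.8 CPM and was at 73.0 to 79.0 CPM in dKO.

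Response genes of developmental signals were higher in rescue in most cases. Of 15 tested TGF-beta, Nodal and BMP genes 12 rose, 1 fell and 2 were not called, with a median of 0.84 and 80.0% of members called higher beside 26.8% of all genes. The ligand Nodal rose from 102, 106 and 104 CPM to 193, 188 and 179 CPM (0.84 ± 0.074, adjusted p = 3.02e-06), and its antagonists Lefty1 and Lefty2 from 4.82 to 5.50 CPM to 12.5 to 14.6 CPM and from 37.2 to 49.0 CPM to 146 to 151 CPM. Lefty2 was higher still in dKO, at 364 to 455 CPM, whereas Nodal was at 61.4 to 74.4 CPM there. The inhibitory Smad7 rose by 1.28, and of the Id family Id1, Id2 and Id3 rose while Id4 fell from 16.6 to 20.8 CPM to 7.31 to 7.86 CPM. Without the shifted regions 9 of 12 members were higher and 1 lower.

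Wnt response genes counted 18, with 11 that rose, 1 that fell and 6 that did not pass (median 0.57). Sp5, a direct target of beta-catenin, was at 7.64, 8.91 and 8.71 CPM in WT, 34.0, 32.0 and 37.0 CPM in rescue and 1.45 to 2.56 CPM in dKO (2.02 ± 0.133, adjusted p = 3.80e-07). Axin2 rose by 0.65, Cdx1 by 1.23 and the antagonist Dkk1 by 4.02, from 0 to 0.187 CPM to 1.49 to 1.99 CPM, with 4.83 for Dkk1 without WT replicate 2. The 1 that fell, Notum (-0.48, adjusted p = 0.0405), lost its call without any 1 of the WT or rescue libraries. The transcription factor Tcf7 was at -0.04 and did not pass.

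Of 14 genes of the FGF and ERK response 9 rose, 2 fell and 3 were not called (median 0.49, and -0.26 in dKO). All cells were grown with an inhibitor of the ERK pathway, as 2i medium contains one. Myc, the proliferation factor, rose from 1.38, 1.35 and 1.24 CPM to 7.57, 7.56 and 6.92 CPM (2.47 ± 0.148, adjusted p = 1.99e-07), and Etv4 from 2.00 to 2.63 CPM to 13.4 to 14.01 CPM. Etv5 and Dusp6 rose by 0.52 and 0.44. The 2 that fell were Fos and Spry2 (-0.64), the latter on chromosome 14, so within the Sprouty family Spry4 rose and Spry2 fell.

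**Figure D5:**
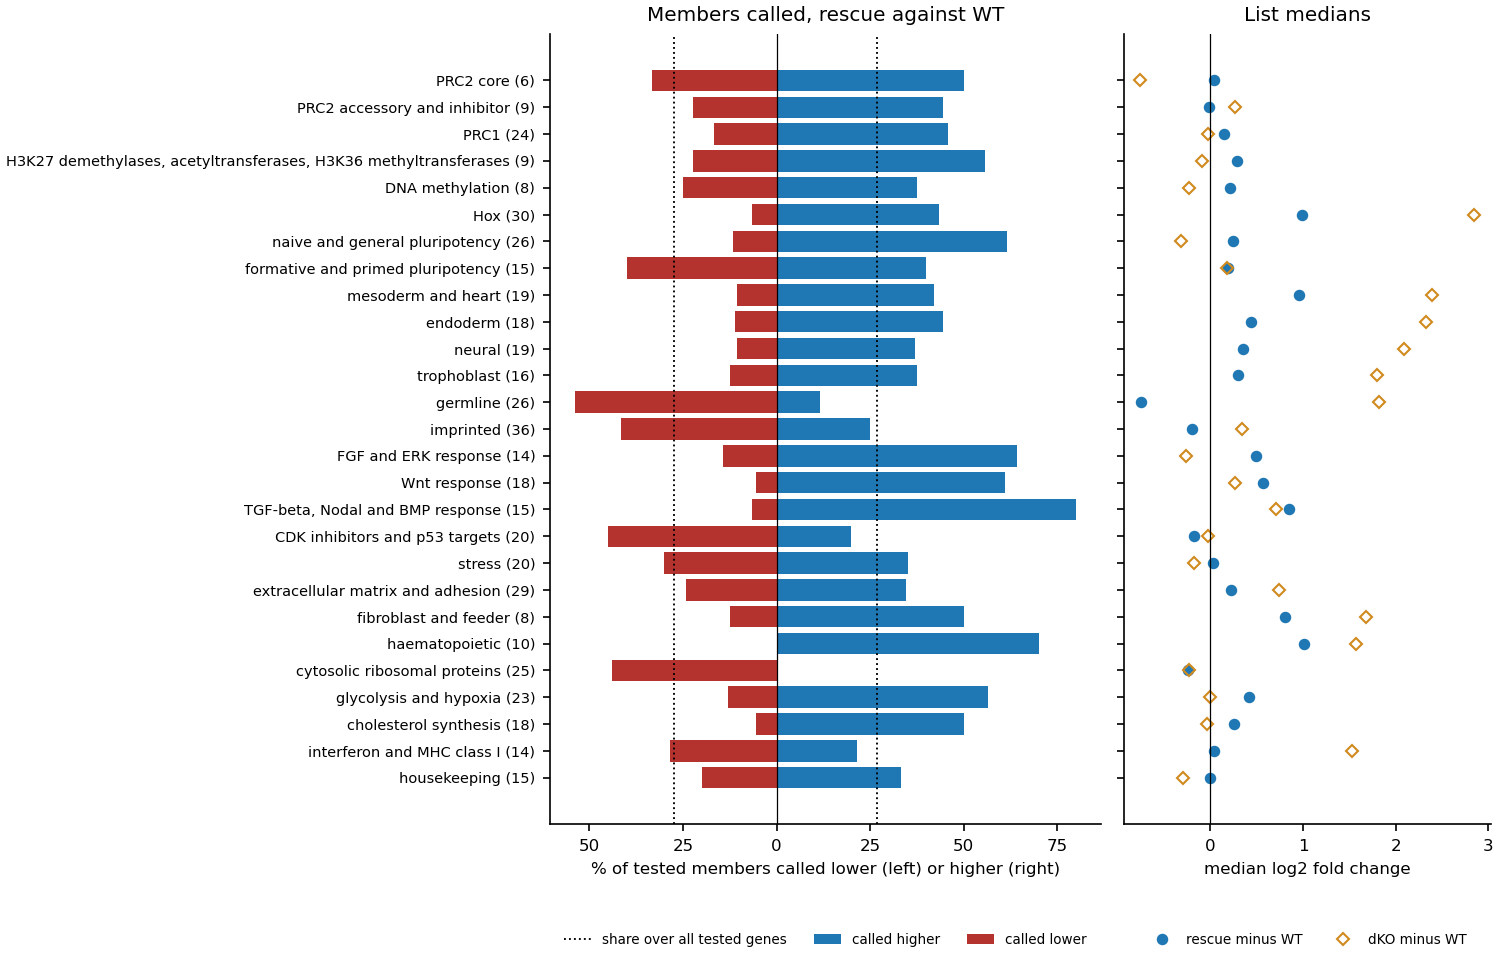
Left, percent of the tested members of each list (number in brackets) called higher (blue, to the right of 0) and lower (red, to the left) in rescue against WT, with dotted lines at the shares over all tested genes (26.8% and 27.3%). Right, median log2 fold change of the same members in rescue minus WT (filled) and dKO minus WT (open); the signalling, glycolysis and naive pluripotency lists lie to the right and the germline list to the left in rescue.

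Lists of sugar and sterol metabolism held more rises than falls. Of 23 genes of glycolysis and hypoxia 13 rose, 3 fell and 7 were not called (median 0.42, and 0.00 in dKO). Pkm went from 1720, 1755 and 1688 CPM to 2650, 2571 and 2479 CPM (0.58 ± 0.0496, adjusted p = 2.66e-06), Aldoa from 1375 to 1469 CPM to 2027 to 2081 CPM and the glucose carrier Slc2a1 from 177 to 197 CPM to 322 to 350 CPM. Slc2a3, the other main glucose carrier, was at 0.01 and did not pass. Hypoxia targets did not move together, with the lactate carrier Slc16a3 up by 1.17 and Vegfa lower by 0.57 (log2 fold change -0.57). Of 18 genes of cholesterol synthesis and uptake 9 rose, 1 fell and 8 were not called (median 0.25). Hmgcs1, an early enzyme of the pathway, rose by 0.56 and Insig1, which retains the sterol sensor in the endoplasmic reticulum, by 0.49. The 1 that fell, Fdft1, lies on chromosome 14, and the regulator Srebf2 was at -0.07 and did not pass.

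Of 25 cytosolic ribosomal protein genes 11 fell and none rose by edgeR or DESeq2 (0 higher also at an unadjusted p under 0.05), with 14 not passing and a median of -0.24, which was -0.23 in dKO. Rpl8 went from 2453, 2655 and 2500 CPM to 2153, 2021 and 1997 CPM (-0.30 ± 0.0598, adjusted p = 0.0012) and Rps14 from 582 to 664 CPM to 408 to 501 CPM, while Rplp0 was at 0.08 and did not pass. Many of these genes have processed copies across the genome, so their counts are uncertain. Among 20 p53 targets and CDK inhibitors, falls (9) outnumbered rises (4), and 7 did not pass. Ccng1 fell from 482 to 525 CPM to 382 to 394 CPM and Zmat3 by 1.00 on the log2 scale, the latter on chromosome 3, whereas the proapoptotic Pmaip1 rose from 56.9 to 63.4 CPM to 84.2 to 97.7 CPM and was at 276 to 297 CPM in dKO. Cdkn1a did not pass (302 ± 13.9 and 315 ± 8.90 CPM, SD, n = 3).

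The next lists are to be read against the shares over all tested genes, 26.8% higher and 27.3% lower, and are given for their members only. Of 20 stress genes 7 rose (35.0%), 6 fell (30.0%) and 7 were not called. The chaperone Hspa5 of the endoplasmic reticulum rose from 789 to 821 CPM to 1151 to 1239 CPM, near the 1197 to 1323 CPM of dKO, and Gadd45a fell from 19.3 ± 0.323 CPM to 7.09 ± 0.118 CPM (SD, n = 3), near the 6.19 to 7.53 CPM of dKO. Of 29 matrix and adhesion genes 10 rose (34.5%), 7 fell (24.1%) and 12 were not called. Epcam, an epithelial adhesion molecule with a Suz12 peak of 2160 bp, fell from 104.0, 106 and 108 CPM to 39.8, 39.5 and 41.1 CPM (-1.40 ± 0.081, adjusted p = 1.54e-07), while dKO held 211 to 267 CPM. Col18a1 fell by 0.98 on the log2 scale, and the fibronectin gene Fn1, at 3329 to 3642 CPM in WT and 3398 to 3882 CPM in rescue, did not pass. Of 14 interferon and MHC class I genes 3 rose, 4 fell and 7 were not called (21.4% higher and 28.6% lower). Ifitm1 went from 249, 243 and 209 CPM to 106, 127 and 108 CPM (-1.04 ± 0.125), and was at 46.8 to 69.5 CPM in dKO. B2m rose by 0.40, to 54.4 to 64.5 CPM, where dKO held 109 to 134 CPM. Of 15 housekeeping genes 5 rose (33.3%), 3 fell and 7 were not called, with Actb at 0.28 (adjusted p = 0.227, and 0.00775 at the lowest, being called without dKO replicate 3 or with only the 6 libraries).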

How the data were processed

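RNA counts of 9 libraries were used. They were deposited by the authors as whole-number counts of reads per gene, without normalization, and per the submitters' processing notes Trimmomatic, STAR 2.4.0, HTSeq and the mm10 build were used; the sources used here do not give the counting mode or the gene models. Per the labels' protocols the kit was TruSeq RNA v2, which does not mark strand. Suz12 peaks come as coordinates without a score, in a list the authors deposited. The rescue tables carry the letters WT in their own names, and libraries were grouped by GEO's labels.

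Counts were fitted with edgeR 4.0.16 in R 4.3.3 (TMM, filterByExpr, robust quasi-likelihood, two-sided test of rescue minus WT), 1 fit over all 9 libraries with 3 group means, leaving 6 residual degrees of freedom. The threshold was 0.05 on p-values adjusted by Benjamini-Hochberg over every tested gene, with "rose" and "fell" for called genes only. Levels are CPM scaled by TMM, and SE is the standard error of the log2 fold change. DESeq2 1.42.0, other size factors and filters, only the 6 libraries, a replicate block, leave-one-out fits and fits without shifted regions were alternatives. Named genes are Ezh1, Ezh2, Eed and Suz12, the 15 largest changes each way (groups not overlapping, at least 2 CPM in the higher group, predicted identifiers left out), the 6 largest CPM differences each way, and from each list the 3 smallest adjusted p and the most abundant member not passing, plus the 2 most abundant called genes of each shifted chromosome, among them Tkt, Ipo5 and Cct3 (-0.55). Some genes that the rule names are not reported here. Members and lists were chosen with earlier results of these data known. Of 24222 genes 24084 were placed by RefSeq's GRCm38.p6 table, 17947 with a start site; for the other 6137 the gene and 1 kb around it took its place. Replicates differed beyond counting noise (chi-square per degree of freedom 2.15 to 11.4 within WT and rescue, 5.44 between dKO replicates 1 and 2, and 22.6 and 22.5 between these and dKO replicate 3, which stands apart and enters the shared spread). The other 61 ChIP samples were not analysed here.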

Additional observations from a re-analysis of the deposited data

How the results depend on the processing

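Over all other settings, of which 1 was chosen after seeing the data (without chromosomes 3 and 14 and the shifted bins), genes called higher ranged from 3159 to 4321 and genes called lower from 3298 to 4389, and no gene called in both ways of fitting changed sign. Leaving out 1 library gave 3159 to 4321 higher and 3298 to 4389 lower, of which 870 to 961 and 893 to 959 were over 2-fold. The highest counts, 4321 and 4389, came without dKO replicate 3, the library that stands apart in its group. With a mean of at least 2 CPM, 510 genes rose by over 2-fold in place of 910, since that filter removes genes of low level. Without the shifted regions 3399 genes were higher and 3375 lower. Nothing in the labels pairs the libraries by replicate number. Same-number deviations of WT and rescue correlated at -0.112, 0.115 and 0.201, and those of different number at -0.275 to 0.186. Deviations from a group mean cancel out within the group, so these values cannot decide whether the libraries pair. With a replicate block 3751 genes were higher and 3861 lower, 7407 of them shared with the 7653. The call of Eed was then lost (adjusted p = 0.0565). Each named gene was compared with the main fit once for every setting that tested it. Of these comparisons 3580 kept their outcome, called or not, 33 lost the call, 28 gained it and none reversed. Comparisons of list results were marked as the same 802 times and as moved 89 times. For peak and chromosome results the marks were 24 the same and 25 moved. The count for named genes therefore does not speak for these results. Of genes with a mean under 1 CPM over all 9 libraries 30.7% were called, against 59.1% over 100 CPM. The part of depth in this was not tested.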
